A study of Mus musculus with 6 samples.

Results

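Lyve1, Prox1, Pdpn, Reln, Mmrn1 and Foxc2 are 6 genes used as markers of lymphatic endothelium, the cell layer that lines lymphatic vessels. Their rows were taken by symbol from the 29753 usable rows of a mouse lung count table. All 6 passed the filter on low counts, as did 17686 genes in total. The set was chosen by the Lyve1 counts, known to be higher on the later of the 2 days of the study, so the comparison of days below describes these genes and does not test them.

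Lymphatic vessels drain fluid, antigen and leukocytes from tissue towards lymph nodes, and in the lung they run along airways, veins and the pleura. Their identity is set by the homeobox factor Prox1, and the receptor Flt4 (VEGFR3) with its ligand Vegfc drives their growth. Forkhead factor Foxc2 acts later, in the maturation of collecting vessels and valves. None of these markers is exclusive: Lyve1 is also found on a class of tissue macrophages, Pdpn is abundant on alveolar type 1 cells, Mmrn1 is stored in platelets, and Prox1 is also made in heart muscle.

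The lungs came from balb/c mice on day 0 (D0) and day 14 (D14) of a model in which K7M2 osteosarcoma cells, a mouse line that spreads to the lung, are implanted orthotopically. Each day had 3 bulk RNA libraries, labelled as biological replicates, and all 6 share the strain and the implanted line. There was no D14 group without implanted cells, so the tumour, the procedure and the 14 days that passed cannot be told apart. The labels give no age for the animals and do not tie each library to a single mouse, and p-values here reflect spread among libraries, which may be technical. Titles and tissue labels name lungs, though the extraction protocol speaks of macrophages cultured from bone marrow. The samples are taken as lungs: markers of alveolar type 1 cells, which line the air spaces, summed to 7180 to 10200 CPM, counts scaled to library size with TMM factors, in the 6 libraries.

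Library totals ran from 14878101 to 17385006 counts, and 3 counts in a library correspond to 0.173 to 0.202 CPM, a limit that covers counting error only. One library stood apart. In D0 replicate 3 a list of red cell genes summed to 52500 CPM, against 9240 to 28900 CPM in the other 5 libraries, and 12 pan-endothelial markers summed to 3090 CPM, the lowest value of the 6. Differences between days in the 6 genes are therefore also given without that library. D0 replicate 1 lay at the other end of the D0 libraries, with 9240 CPM of red cell genes and 5370 CPM of pan-endothelial markers. For some genes values without D0 replicate 1 are given too. In bulk lung, fewer cells of a type and less RNA per cell cannot be told apart.

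The 6 genes lie on 6 chromosomes and are all annotated as protein-coding in GENCODE for GRCm38. Lyve1 spans chromosome 7 from 110850607 to 110863239, Prox1 chromosome 1 from 190118035 to 190170714 and Pdpn chromosome 4 from 143267431 to 143299564. Reln spans chromosome 5 from 21884454 to 22344702, Mmrn1 chromosome 6 from 60924976 to 60989378 and Foxc2 chromosome 8 from 121116171 to 121118895. Annotated antisense genes touch exons of Prox1 (Gm28172 and Prox1os) and Reln (Gm10475), and the read-through gene model Gm20388 covers Foxc2. Strand handling in the counting is not given in the sources used here, so the low counts of these 3 genes may include reads of those neighbours.

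RefSeq promoter entries for GRCm38.p6 were matched for Prox1, Reln, Pdpn and Mmrn1, and not for Lyve1 and Foxc2. The 250 bases before the start site are shown for 3 genes whose levels are set against Lyve1 below, since they differ widely in composition. Capitals mark CG dinucleotides, and each sequence is written 5′ to 3′ on the gene's own minus strand. The windows are chr1:190170828-190171077 for Prox1, where RefSeq lists another start site further downstream, chr5:22344706-22344955 for Reln and chr4:143299565-143299814 for Pdpn.
Prox1: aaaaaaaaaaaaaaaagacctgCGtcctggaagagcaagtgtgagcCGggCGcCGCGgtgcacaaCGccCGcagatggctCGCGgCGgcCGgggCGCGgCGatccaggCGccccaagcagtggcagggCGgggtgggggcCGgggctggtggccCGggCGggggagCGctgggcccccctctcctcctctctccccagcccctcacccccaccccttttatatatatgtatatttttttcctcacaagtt
Reln: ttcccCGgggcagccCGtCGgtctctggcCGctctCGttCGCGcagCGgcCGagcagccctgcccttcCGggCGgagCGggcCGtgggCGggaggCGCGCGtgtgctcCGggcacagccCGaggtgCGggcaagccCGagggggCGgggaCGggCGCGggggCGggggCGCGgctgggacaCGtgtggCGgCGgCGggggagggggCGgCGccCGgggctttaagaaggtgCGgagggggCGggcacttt
Pdpn: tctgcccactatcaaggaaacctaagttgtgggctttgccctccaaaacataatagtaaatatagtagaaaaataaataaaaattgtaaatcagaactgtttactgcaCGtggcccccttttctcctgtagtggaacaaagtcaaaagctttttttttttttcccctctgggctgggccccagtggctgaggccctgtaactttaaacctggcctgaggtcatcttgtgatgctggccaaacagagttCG
Reln had 80% G and C and 37 CG dinucleotides, and Prox1 had 64.8% and 20. Pdpn had 43.2% and 2, and the window of Mmrn1, which lies inside the annotated gene, had 42.4% and 3. The median over 27025 promoters of this length was 52% and 6. Both strands of these windows and of all promoters of this length were searched for 5 short motifs. The ETS core GGAAG was present in 63.6% of all promoters and was found in Prox1, Reln and Mmrn1 and not in Pdpn. The forkhead core TAAACA, present in 12% of all promoters, was found in Pdpn and in the downstream window of Prox1. For the SOX core ACAAT, present in 28.3%, matches lay in Pdpn and Mmrn1. The nuclear receptor half-site AGGTCA was present in 13.8% and matched in Pdpn alone among these genes. No window of the 4 genes held the GATA core AGATAA, present in 10.3%.

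Lyve1, a hyaluronan receptor of the Link domain family related to Cd44, had the largest difference between days of the 6 genes. The D0 libraries measured 106, 120 and 45.5 CPM, against 259, 297 and 326 CPM for D14. All 3 D14 libraries lay above all 3 D0 libraries, the lowest D14 value being 2.16 times the highest D0 value. The means were 90.5 ± 39.6 CPM on D0 against 294 ± 33.4 CPM on D14 (SD, n = 3 each), a fitted log2 fold change of 1.70 (SE 0.34). D0 replicate 3 was the lowest library, and without it the log2 fold change was 1.38 (SE 0.15).

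Pdpn, podoplanin, is a mucin-like membrane glycoprotein that binds the platelet receptor Clec1b (CLEC-2) and keeps blood and lymph apart. It had 5.58, 7.73 and 6.95 CPM on D0 against 5.68, 9.57 and 6.28 CPM on D14. The days overlapped almost wholly, with means of 6.75 ± 1.09 and 7.17 ± 2.09 CPM. The log2 fold change was 0.09 (SE 0.27), and it was 0.11 without D0 replicate 3. It turned negative when D0 replicate 1 (−0.03) or D14 replicate 2 (−0.17) was left out. No direction can be given for Pdpn.

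The lineage factor Prox1 had low counts, and its days were at most narrowly apart. It had 41, 22 and 24 counts at D0 and 61, 38 and 43 counts at D14, or 2.38, 1.41 and 1.69 CPM against 3.53, 2.42 and 2.76 CPM. Scaled CPM separated the days by 0.0395 CPM, while raw counts and counts per library total overlapped. The log2 fold change was 0.67 (SE 0.33), and 0.61 without D0 replicate 3. Over summed counts, 142 at D14 against 87 at D0, the ratio was 1.58 with an exact 95% interval of 1.2 to 2.09 that covers counting error only, and 1.53 without D0 replicate 3.

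Foxc2, the valve factor, came second in size of difference, at the lowest counts of the 6. Its counts were 10, 20 and 22 at D0 and 44, 31 and 37 at D14, which is 0.581, 1.28 and 1.54 CPM against 2.55, 1.98 and 2.37 CPM. The days did not overlap in scaled CPM, in CPM of library totals or in raw counts. Its log2 fold change was 1.02 (SE 0.41), ranging from 0.71 without D0 replicate 1, the lowest library, to 1.31 without D0 replicate 3. The ratio of summed counts, 112 against 52, was 2.09 with an exact 95% counting interval of 1.49 to 2.96, and 2.53 without D0 replicate 3.

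Reln and Mmrn1 encode secreted proteins. Reelin is a large matrix glycoprotein known from brain layering and released by collecting lymphatic vessels, and multimerin 1 is a factor V binding protein of endothelium and platelets. Reln had 3.90, 2.30 and 2.25 CPM on D0 against 4.52, 3.06 and 4.23 CPM on D14. D0 replicate 1 lay above D14 replicate 2, so the days overlapped. The log2 fold change of Reln was 0.48 (SE 0.33), and 0.34 without D0 replicate 3. Without D0 replicate 1 it was 0.80.

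Mmrn1 had 8.14, 8.94 and 7.37 CPM on D0 against 8.11, 9.82 and 11.4 CPM on D14. It was the steadiest of the 6 within D0, where its highest library was 1.21 times its lowest, against 2.64 times for Lyve1 and 2.66 times for Foxc2. The log2 fold change of Mmrn1 was 0.26 (SE 0.21), and 0.20 without D0 replicate 3. D14 replicate 1 lay just below D0 replicate 1, so the days overlapped.

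**Figure D1:**
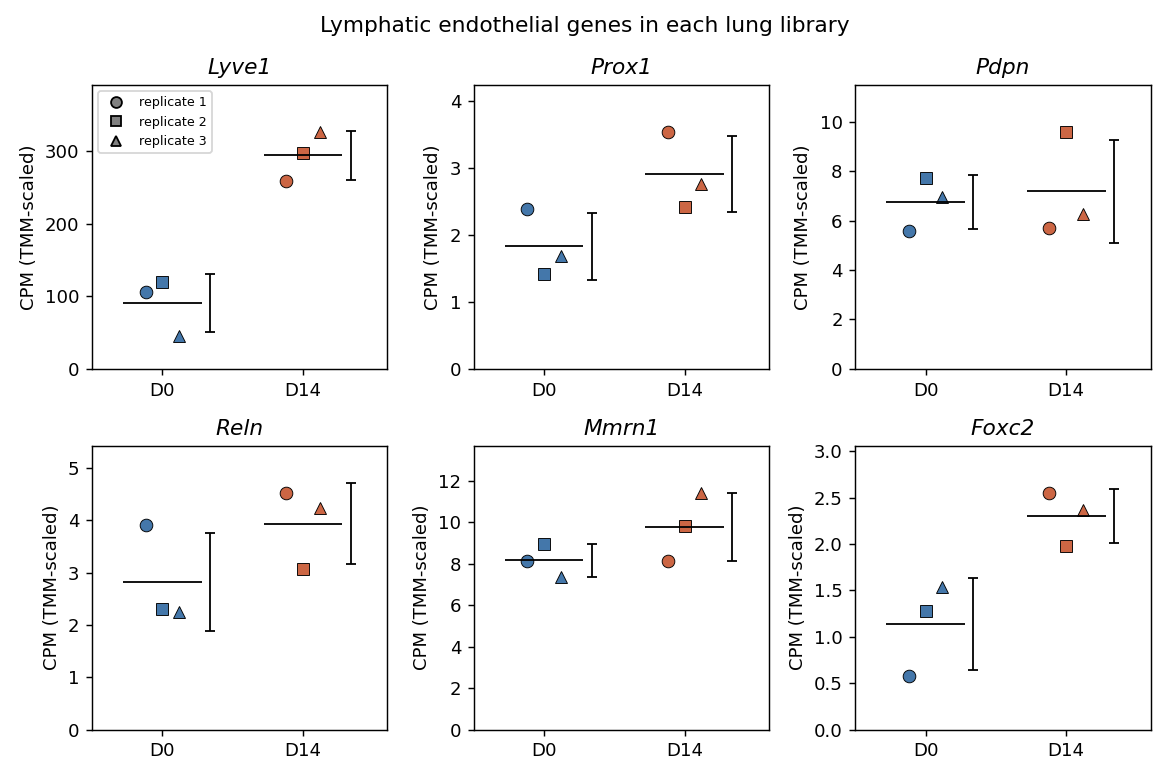
CPM (vertical axes, TMM-scaled, from 0) of the 6 genes in the D0 (blue) and D14 (orange) libraries; marker shapes give the replicate number, horizontal lines the mean and bars 1 SD. Lyve1 sits at 45.5 to 120 CPM on D0 and 259 to 326 CPM on D14, while the days overlap for Pdpn, Reln and Mmrn1.

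All 6 fitted log2 fold changes were above 0, with a median of 0.57, where 46.9% of all tested genes were above 0 and the median of all genes was −0.03. By edgeR's quasi-likelihood test with Benjamini-Hochberg adjustment over all genes, 0 of the 6 passed an adjusted p of 0.05, against 0.0339% of all genes. At an unadjusted p under 0.05 stood 2, Lyve1 and Foxc2, where 12.6% of all genes did, and DESeq2 called 1, Lyve1, where it called 1.32% of all genes. Without D0 replicate 3 edgeR did call 1 of the 6, Lyve1, where it called 0.121% of all genes. With any other single library left out, edgeR called 0 genes higher at D14, so Lyve1 was not called. Non-overlapping days with D14 higher were seen for 3 of 6, Lyve1, Foxc2 and Prox1, against 10.9% of all genes. These counts come from the contrast through which the set was chosen and are printed as description.

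Set against each other, Lyve1 did not keep a constant proportion to the other genes. The log2 CPM of Lyve1 exceeded the mean log2 CPM of the other 5 genes by 5.05, 5.20 and 3.80 in the D0 libraries and by 5.80, 6.08 and 6.11 in the D14 libraries. The distance was thus 1.32 log2 units wider at D14, and the days did not overlap. D0 replicate 3 was the lowest, and without it the widening was 0.87, still without overlap. Against single genes it widened by 1.75 for Pdpn, 1.56 for Mmrn1 and 1.32 for Reln, each without overlap. Without D0 replicate 3 these values were 1.29, 1.2 and 1.02, again without overlap. The distance was 1.16 wider for Prox1 and 0.78 for Foxc2, where the days overlapped. Without D0 replicate 3 it was 0.76 wider for Prox1 and 0.10 for Foxc2, so the distance from Foxc2 rests on that library.

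Compared per length of the longest annotated transcript, the order of levels was stable at the top. Lyve1 had 31.3 ± 13.7 CPM per kilobase at D0 and 102 ± 11.6 at D14, Pdpn 3.72 ± 0.599 and 3.95 ± 1.15, and Mmrn1 1.82 ± 0.176 and 2.18 ± 0.368 (SD, n = 3). This order, Lyve1 over Pdpn over Mmrn1, held in all 6 libraries, and on each day neighbouring genes in it did not overlap. Foxc2 followed at 0.416 ± 0.183 and 0.844 ± 0.107, Prox1 at 0.231 ± 0.0637 and 0.367 ± 0.0720, and Reln at 0.241 ± 0.0801 and 0.336 ± 0.0660. Reln and Prox1 changed places between libraries and did not differ beyond their spread, and Foxc2 overlapped both of them at D0 and lay above both at D14. With the summed exon length in place of the longest transcript, Reln stood at 0.119 and 0.166 and was last in all 6 libraries.

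Because endothelial RNA itself differed between libraries, each gene was also set against 12 pan-endothelial markers of its own library. The mean log2 CPM of these markers was 8.36, 7.88 and 7.50 at D0 and 8.46, 8.48 and 8.45 at D14, higher by 0.55 at D14. Lyve1 minus this mean was −1.63, −0.97 and −1.99 at D0 and −0.44, −0.26 and −0.10 at D14. The days did not overlap and the difference was 1.26 log2 units, or 1.04 without D0 replicate 3.

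The other 5 genes overlapped on this scale. Prox1 differed by 0.10, with −7.03, −7.27 and −6.64 at D0 and −6.58, −7.13 and −6.92 at D14. Reln differed by −0.06, Mmrn1 by −0.30 and Pdpn by −0.49. Foxc2 differed by 0.48, but by −0.12 without D0 replicate 1 and by 0.94 without D0 replicate 3. Without D0 replicate 3 the differences were 0.27 for Prox1, 0.02 for Reln, −0.16 for Mmrn1 and −0.25 for Pdpn. Without D0 replicate 1 they were −0.52 for Mmrn1 and −0.84 for Pdpn. With each library left out in turn, Reln ran from −0.16 without D14 replicate 1 to 0.12 without D14 replicate 2. Prox1 was −0.05 without D14 replicate 1 and −0.04 without D0 replicate 2, so neither gene has a direction on this scale. Thus Lyve1 alone among the 6 was higher relative to pan-endothelial markers in every D14 library than in every D0 library.

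**Figure D2:**
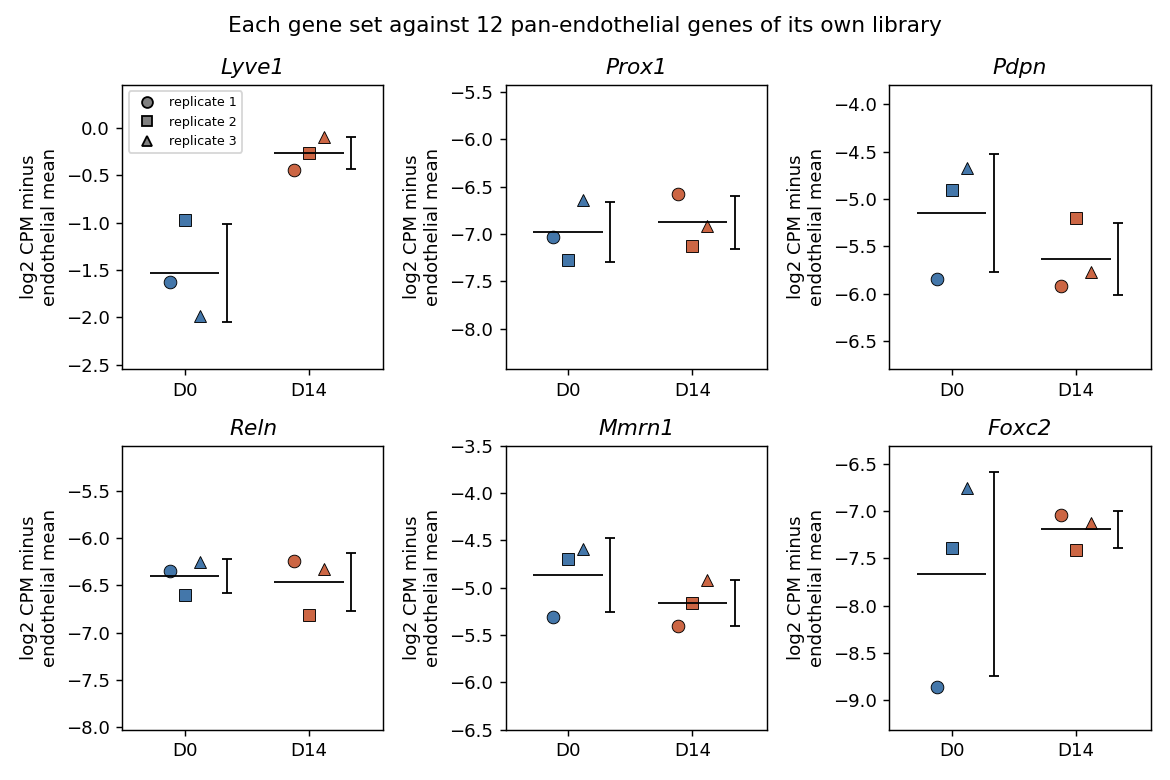
Log2 CPM of each gene minus the mean log2 CPM of 12 pan-endothelial genes in the same library (vertical axes, each spanning the same number of log2 units); colours, shapes, lines and bars as for the plot of CPM. Lyve1 moves from −1.99 to −0.97 on D0 to −0.44 to −0.10 on D14, and the days overlap for the other 5 genes.

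Beyond these 6, a list of 47 other genes of lymphatic fate, growth, valves and surface was examined, of which 46 passed the filter on low counts. By edgeR 0 passed an adjusted p of 0.05 over all genes, against 0.0339% of all genes. At an unadjusted p under 0.05 stood 10, where 12.6% of all genes did. Of these, 7 were higher at D14, where 5.48% of all genes were both higher and under that p. DESeq2 called 4, of which 3 were higher at D14, where it called 1.32% of all genes. The edgeR count was also 0 without any 1 of the 6 libraries. Log2 fold changes were above 0 in 30 of 46 (65.2%), with a median of 0.18. Days that did not overlap were counted in 10 genes with D14 higher, or 21.7% against 10.9% of all genes, and in 3 with D14 lower, where 10.7% of all genes did. Of the 12 pan-endothelial markers, which share Ramp2 with this list, 11 were above 0, with a median of 0.54. In 6 of them D14 was higher without overlap. How far the values of this list follow that endothelial difference was not tested.

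The VEGF-C pathway had 7 of 8 genes above 0 and a median log2 fold change of 0.46. Flt4 (VEGFR3), the receptor of lymphatic growth, had 86.0, 55.5 and 25.6 CPM on D0 against 95.5, 91.3 and 104 CPM on D14 (log2 fold change 0.80, SE 0.38; edgeR adjusted p = 0.421). Its lowest library was D0 replicate 3, as for Lyve1 and for the summed pan-endothelial markers (3090 CPM). Of the ligands, Vegfc had 11.2, 9.14 and 9.06 CPM on D0 against 17.3, 14 and 19.2 CPM on D14 (log2 fold change 0.78, SE 0.19; edgeR adjusted p = 0.347). Vegfd had 46.8 to 58.6 CPM on D0 against 61.6 to 79.3 CPM on D14. Flt4, Vegfc and Vegfd were picked out after their values were seen, and in each of them D14 lay above D0 without passing the test. Of the genes named by rule, Kdr (VEGFR2) stood at 0.62 (SE 0.32) and the co-receptor Nrp2 at 0.45 (SE 0.19). Days did not overlap in these 5 of the 8 genes of the list, where D14 lay above D0 for 10.9% of all genes. They overlapped in the remaining 3, Ccbe1 (log2 fold change 0.48), Adamts3 (0.45) and Adamts14 (−0.39).

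Fate factors did not share a direction: 4 of 9 were above 0 and the median was −0.15. Sox18, which switches on Prox1 in the embryo, had 353, 104 and 77.0 CPM on D0 against 145 to 159 CPM on D14, a log2 fold change of −0.25 (SE 0.52). Gata2, a factor of lymphatic valves, stood at 0.47 (SE 0.31). Nr2f2 (COUP-TFII), a partner of Prox1, stood at −0.22 (SE 0.19) and the Foxc2 relative Foxc1 at 0.09 (SE 0.25). Tbx1, a T-box factor, was lower at D14 in every library, 16.7 to 21.9 CPM at D0 against 8.75 to 9.74 CPM at D14 (edgeR adjusted p = 0.185), and DESeq2 called it lower (adjusted p = 0.0012). Nr2f2, Foxc1 and Tbx1 were picked out after their values were seen.

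The adrenomedullin pathway, a receptor system needed for lymphatic growth, had 3 of 4 genes above 0 and a median of 0.50. The receptor Calcrl and its partner Ramp2 stood at 0.44 (SE 0.25) and 0.55 (SE 0.18). Ackr3, a decoy receptor for adrenomedullin and Cxcl12, came nearest to the threshold of all 46 genes. It had 43.4, 48.7 and 40.0 CPM on D0 against 101, 96.9 and 85.4 CPM on D14, a log2 fold change of 1.10 (SE 0.15; edgeR adjusted p = 0.0843). Ackr3 was picked out after its values were seen. With no filter on low counts its edgeR adjusted p was 0.0475, and DESeq2 called it (adjusted p = 7.83e-07).

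Valve and junction genes had 10 of 15 above 0 and a median of 0.08. Efnb2 (ephrin B2), a membrane ligand of valves and arteries, had 337, 259 and 171 CPM on D0 against 523, 481 and 543 CPM on D14 (log2 fold change 1.01, SE 0.25; edgeR adjusted p = 0.347; DESeq2 adjusted p = 0.0146). Plxna1, a semaphorin receptor, stood at 0.03 (SE 0.30). Gja4, a gap junction connexin, stood at −0.65 (SE 0.54). Itga9, the valve integrin, stood at 0.11 (SE 0.14). Gja4 and Itga9 were picked out after their values were seen.

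Other surface and secreted markers had 6 of 10 tested genes above 0 and a median of 0.22. Stab1, a scavenger receptor of endothelium and macrophages, and Cd200, an immune inhibitory ligand, stood at 0.55 (SE 0.33) and 0.22 (SE 0.21). Ccl21a, the chemokine that guides dendritic cells into lymphatic vessels, appears in 2 rows of the table. Its larger row had 358, 352 and 363 counts at D0 and 326, 408 and 231 counts at D14, and its smaller row 39, 56 and 55 counts at D0 and 44, 55 and 27 counts at D14. Mouse Ccl21 genes are near-identical copies, so both rows are uncertain, and neither separated the days. Stab2, another hyaluronan receptor of the Link domain family, had 3.00 to 3.84 CPM on D0 against 3.33 to 5.48 CPM on D14. Clca3a1, a surface protein of lymphatic vessels, had 19, 27 and 21 counts at D0 and 127, 159 and 36 counts at D14 (log2 fold change 2.20, SE 0.54; edgeR adjusted p = 0.347; DESeq2 adjusted p = 0.00733). Ccl21a, Stab2 and Clca3a1 were picked out after their values were seen, and Nts was below the count filter.

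Partners of the encoded proteins were examined as 4 lists with 32 genes, 31 of them tested. By edgeR 0 passed an adjusted p of 0.05, against 0.0339% of all genes. At an unadjusted p under 0.05 stood 4, where 12.6% of all genes did, and DESeq2 called 1, where it called 1.32% of all genes. Days did not overlap in 6 genes with D14 higher, or 19.4% against 10.9% of all genes. They did not overlap in 2 with D14 lower, where 10.7% of all genes did. Hyaluronan, the ligand of Lyve1, is made by Has enzymes and degraded by Hyal and Cemip proteins. Of its list, 10 of 12 tested genes were above 0, with a median of 0.39. Cemip2, a cell surface hyaluronidase, had 177, 131 and 87.1 CPM on D0 against 268, 259 and 310 CPM on D14 (log2 fold change 1.08, SE 0.26; edgeR adjusted p = 0.335; DESeq2 adjusted p = 0.0107). Cd44, the main hyaluronan receptor of leukocytes, stood at −0.05 (SE 0.23). The synthases Has1, Has2 and Has3 stood at 0.46 (SE 0.75), 0.38 (SE 0.37) and 0.52 (SE 0.35), with overlapping days in each, and were picked out after their values were seen.

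The reelin signalling list had 5 of 8 genes above 0 and a median of 0.21. Pafah1b1 and Rapgef1, which act downstream of reelin, stood at 0.46 (SE 0.21) and 0.37 (SE 0.21). Its receptors Vldlr and Lrp8 stood at 0.23 (SE 0.18) and −0.56 (SE 0.44). Dab1, the adaptor that relays the signal of these receptors, had the largest difference of the list, in the opposite direction to its median. It had 12, 11 and 15 counts at D0 and 0, 3 and 2 counts at D14, a log2 fold change of −2.88 (SE 0.73; edgeR adjusted p = 0.347), and the days did not overlap. At D14 its counts were at or under the limit of 3 counts. Vldlr, Lrp8 and Dab1 were picked out after their values were seen. Podoplanin partners had 3 of 6 above 0 and a median of 0.02, with Msn (moesin), which links podoplanin to actin, at 0.21 (SE 0.19) and Cd9 at −0.13 (SE 0.18). Multimerin partners had 5 of 5 above 0 and a median of 0.38, with Vwf, another large endothelial and platelet protein, at 0.36 (SE 0.21) and Itgb3, an integrin of platelets and endothelium, at 0.38 (SE 0.17).

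**Figure D3:**
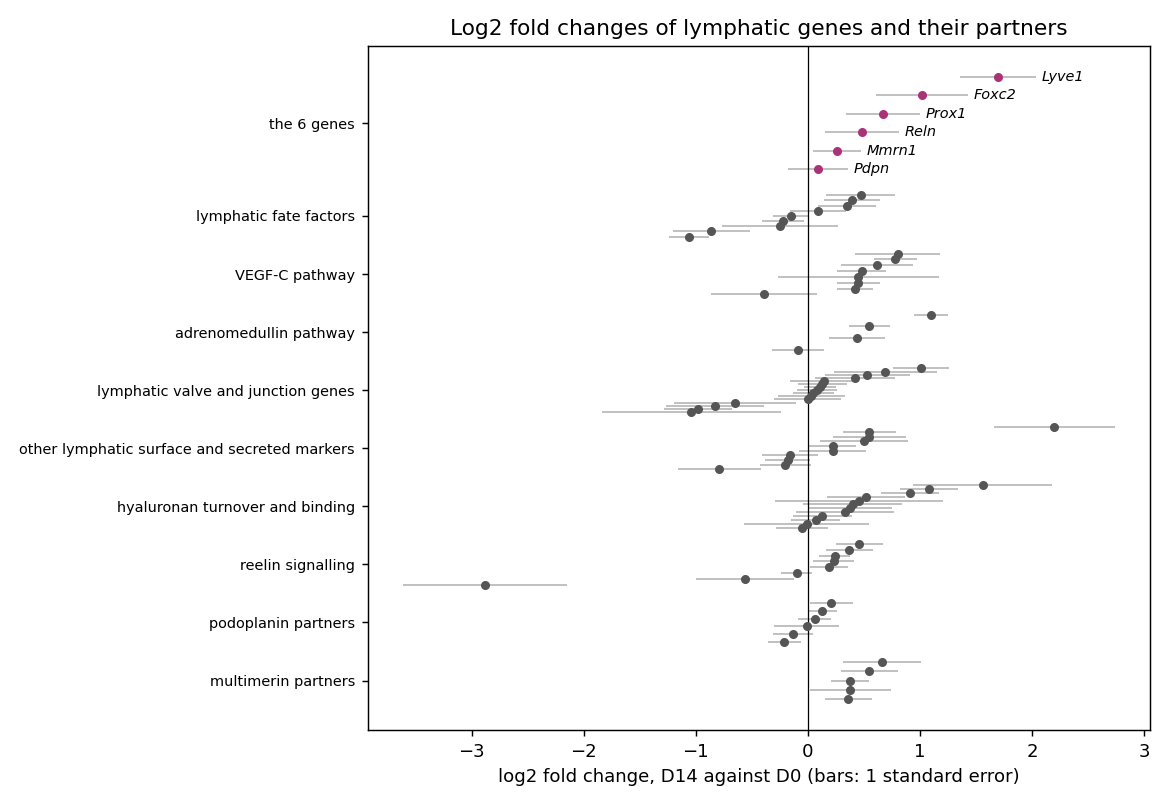
Fitted log2 fold changes of D14 against D0 (horizontal axis, points, with bars of 1 SE) for the 6 genes and for every tested gene of 9 lists of lymphatic and partner genes. Lyve1 stands at 1.70 and Pdpn at 0.09, the VEGF-C pathway lies mostly above 0 and the fate factors lie on both sides.

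Markers of other cells that hold these genes did not move with Lyve1 in one way. Of 12 markers of interstitial and LYVE1-positive macrophages, 4 were above 0 and 8 below, with a median log2 fold change of −0.25. The days separated in 0 of 12, where D14 lay above D0 for 10.9% of all genes and below it for 10.7%. The summed level of the 12 markers was 2840 to 4440 CPM on D0 against 2970 to 3320 CPM on D14. It came mostly from Cbr2, which airway cells also express, and Gas6. Folr2, a marker of the LYVE1-positive class, had 1.8, 3.51 and 9.13 CPM on D0 against 2.72, 3.00 and 3.72 CPM on D14. Timd4 had 1.97 to 13.8 CPM over all libraries and Cd163 3.60 to 10.7 CPM. Folr2, Timd4 and Cd163 were picked out after their values were seen. Lyve1 was lowest in D0 replicate 3, the library in which Folr2 and Timd4 were highest.

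Pan-endothelial markers summed to 3090 to 5370 CPM on D0 against 5980 to 5990 CPM on D14, with 11 of 12 above 0 and a median of 0.54. The junction proteins Cdh5 and Cldn5 stood at 0.65 (SE 0.36) and 0.71 (SE 0.18). Blood capillary markers summed to 1310 to 2630 CPM and 2530 to 2630 CPM, with 9 of 10 above 0, a median of 0.43, and Plvap and Prx at 0.44 (SE 0.29) and 0.95 (SE 0.27). The part of this endothelial difference in the values of Lyve1 was not tested beyond the ratios above.

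For Pdpn, alveolar type 1 markers summed to 7590 to 10200 CPM on D0 against 7180 to 8680 CPM on D14, with 3 of 11 above 0 and a median of −0.27. Ager and Emp2 stood at −0.29 (SE 0.28) and −0.04 (SE 0.20). Mesothelium, which also carries podoplanin, summed to 371 to 1130 CPM and 520 to 618 CPM (2 of 7 above 0, median −0.53), with Msln at −0.57 (SE 0.38) and Upk3b at −0.69 (SE 0.38). Fibroblast markers summed to 1980 to 2790 CPM and 1980 to 2400 CPM (1 of 9 above 0, median −0.14), with Col1a1 at −0.02 (SE 0.15) and Col3a1 at −0.13 (SE 0.19).

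For Mmrn1, platelet markers summed to 54.3 to 85.2 CPM on D0 against 72.1 to 93.6 CPM on D14, with 10 of 12 above 0 and a median of 0.41. Pf4 and Itga2b stood at −0.43 (SE 0.26) and 0.38 (SE 0.36). For Prox1, heart muscle markers were present and their sum was higher at D14. They summed to 108 to 194 CPM on D0 against 283, 242 and 498 CPM on D14, with 6 of 6 above 0 and a median of 1.22. In 3 of the 6 D14 lay above D0 without overlap, as it did for 10.9% of all genes. Myh6, the atrial and adult mouse myosin heavy chain, had 53.1, 50.1 and 39.3 CPM on D0 against 123, 88.8 and 207 CPM on D14 (log2 fold change 1.56, SE 0.31; edgeR adjusted p = 0.303), and Actc1 stood at 0.89 (SE 0.35). The part of heart muscle RNA in the Prox1 counts was not tested.

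Lymph node markers summed to 37.8 to 115 CPM on D0 against 13.1 to 106 CPM on D14, with 1 of 5 tested genes above 0 and a median of −0.37. Glycam1, a gene of lymph node venules, had 0 to 58.6 CPM over the D14 libraries and Cxcl13, a follicular chemokine, 3.88 to 30.7 CPM. Neuroendocrine markers summed to at most 10.7 CPM in a library (2 of 3 tested genes above 0, median 0.22), with Calca at 1.32 (SE 0.51) and Scg5 at −0.85 (SE 0.35). Red cell genes had 2 of 5 above 0 and a median of −0.04, with Hba-a1 at 0.00 (SE 0.63) and Hbb-bt at −0.54 (SE 0.53).

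**Figure D4:**
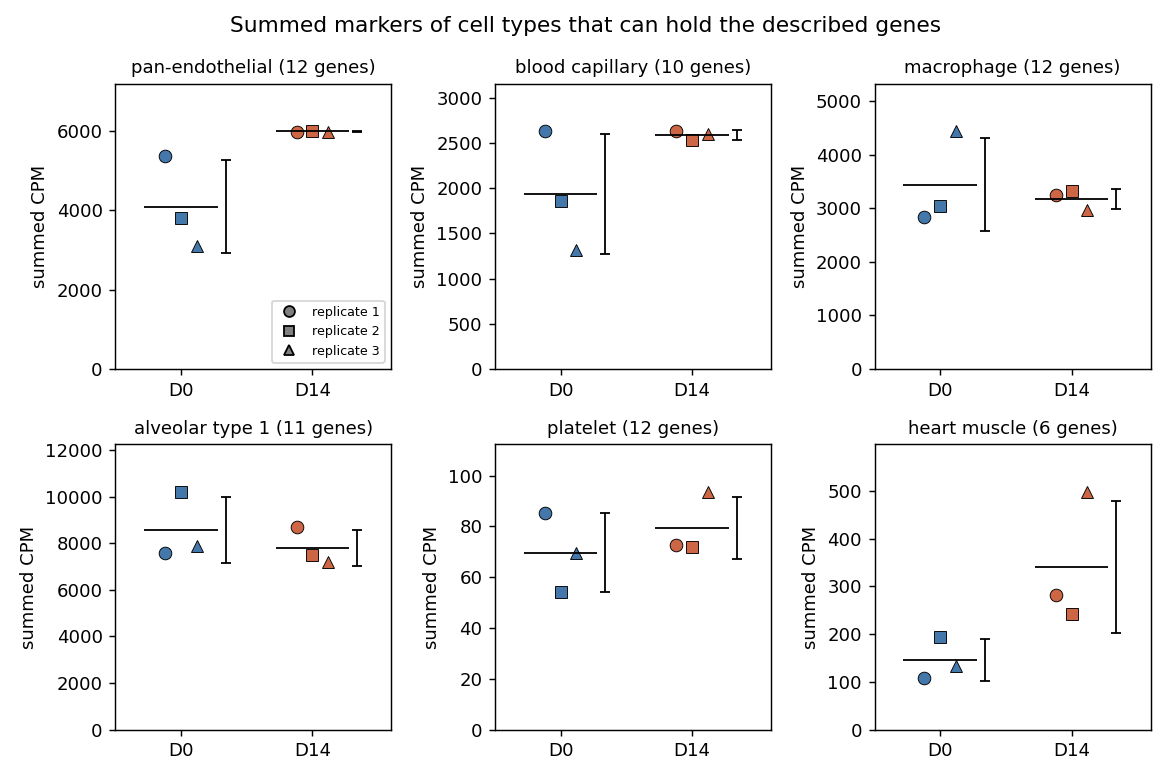
Summed CPM (vertical axes, from 0) of markers of 6 cell types in each library; colours, shapes, lines and bars as for the plot of CPM. Pan-endothelial and heart muscle sums are higher in every D14 library than in every D0 library, and the macrophage sum peaks at 4440 CPM in D0 replicate 3.

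Among 12976 genes with a mean of at least 5 CPM, likeness to Lyve1 was measured as the root mean square difference of log2 CPM over the 6 libraries, after centring each gene on its own mean. The 5 nearest genes were Insr, the insulin receptor, at 0.19, Mpp3, a membrane scaffold protein, at 0.26, Cdh2 (N-cadherin) at 0.27, Stc1 (stanniocalcin 1) at 0.30 and Fzd4, a Wnt and norrin receptor of endothelium, at 0.32. Insr had 35.6, 38.7 and 11 CPM on D0 against 95.9, 93.9 and 114 CPM on D14. Fzd4 had 126, 162 and 80.9 CPM on D0 against 254, 283 and 328 CPM on D14. In both, D0 replicate 3 was lowest and all D14 libraries were above all D0 libraries, as in Lyve1. Both genes were picked for likeness over these same 6 libraries, so this shared pattern follows from the choice.

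By the same measure the other 5 genes lay at larger distances from Lyve1: Prox1 at 0.79, Reln at 0.80, Foxc2 at 0.84, Mmrn1 at 0.86 and Pdpn at 1.02. Of the 12976 genes, 11.2% were nearer to Lyve1 than Prox1 was, 12.7% nearer than Reln, 17.1% nearer than Foxc2, 20.6% nearer than Mmrn1 and 46.4% nearer than Pdpn. The genes most like the others were Rgs2 (0.12) and Fli1 (0.14) for Prox1, Wdr83 (0.10) and Gm6682 (0.10) for Pdpn, and Runx3 (0.07) and Fhad1 (0.09) for Reln. For Mmrn1 they were Gpc4 (0.03) and Ak3 (0.05), and for Foxc2 Ddit4 (0.12) and Ly6a (0.16). Prox1, Reln and Foxc2 had at most 78 counts in a library, so their likenesses carry a wide counting error.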

How the data were processed

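Each day was represented by 3 lung libraries, made with an NEB kit from TRIzol-extracted RNA, per the labels' protocols. The submitters' processing notes list HISAT2 2.1.0, StringTie 1.3.4b, CASAVA 1.8 and edgeR, and the build GRCm38, without saying what each was used for. The authors deposited 1 table of unscaled estimated counts by gene symbol, and every column of it belongs to 1 of the 6 samples. Values were treated as estimated and rounded, though those used were already whole. Of 29757 lines, 4 were left out (2 empty, 2 displaced). Another 50 lines repeat a symbol: they were kept as separate rows, and the row with most counts carries the name.

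Genes were tested with edgeR 4.0.16 in R 4.3.3 (TMM factors, default low count filter, robust quasi-likelihood F test, two-sided, all 6 libraries, no covariate), with Benjamini-Hochberg adjustment over 17686 genes at 0.05. DESeq2 1.42.0 was an alternative. A standard error is the log2 fold change divided by the square root of F. A prior count of 2 entered log2 CPM. A permutation test of 3 against 3 libraries cannot go below 0.1, so none was run. On 3 sets of data simulated for this comparison, the first with 17396 genes and each with 200 altered ones, edgeR recovered 19.3% at a log2 difference of 1 and 83.7% at 2.

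The 6 genes, the 9 lists of pathway and partner genes and the 11 lists of cell markers were chosen with earlier results of these data known. From each list the text names genes past the threshold, or else the 2 tested genes with the highest mean CPM, and says which others were added. Likeness covers the 5 nearest genes for Lyve1 and 2 for each other gene. Same-numbered libraries did not deviate together (correlations 0.119, −0.0548 and −0.0972), and the main fit did not pair them by number. So few libraries cannot exclude a pairing.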

Additional observations from a re-analysis of the deposited data

How the results depend on the processing

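Over all genes, edgeR called 6. DESeq2 called 247 (146 higher at D14), edgeR with no filter on low counts 26 and with the replicate number as a block 0. Leaving out 1 library gave 0 to 22 calls. The count was 0 whichever D14 library was dropped, and dropping D0 replicates 1, 2 and 3 gave 3, 1 and 22. The count of other lymphatic genes past the threshold was 0 with edgeR, 4 with DESeq2 and 1 with no filter. The count of partner genes was 0, and 1 with DESeq2. With 1 library left out both stayed at 0, as they did with the replicate block. With the block the log2 fold change of Lyve1 was 1.8 and that of Foxc2 1.09. RLE factors, no scaling factors, a filter of 1 CPM in 3 libraries, no robust estimation and, chosen after seeing the data, summing rows of one symbol moved no log2 fold change of the 6 genes by more than its spread. Without 1 library, ranges were 1.38 to 1.96 for Lyve1, 0.51 to 0.92 for Prox1, 0.34 to 0.80 for Reln, 0.14 to 0.39 for Mmrn1 and −0.17 to 0.24 for Pdpn. The widening of Lyve1 from the mean of the other 5 ran from 0.87 to 1.57, an alternative chosen after seeing the data. Levels per length moved only for Reln and Mmrn1, the latter to 1.39 and 1.67 CPM per kilobase with summed exon length. Relative to Pecam1 and Cdh5 alone, or with a prior count of 0.5, no difference from endothelial genes moved by more than its spread, though that of Prox1 became −0.13 with the first. The cause of these shifts was not tested. Depth limits Foxc2, Prox1 and Reln, with 10 to 78 counts per library.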
